A study of Mus musculus with 9 samples.

Results

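Transcript levels were examined for 10 genes whose products divide mitochondria, fuse them or mark them for removal by autophagy. These genes were chosen by name, 10 of the 52636 genes counted, and all 10 passed the filter on low counts that left 16322 genes for testing. RNA was sequenced from the left ventricle of 16-week mice on a C57BL6J background, in 9 libraries, 5 labelled WT and 4 labelled KO. By the study's methods, KO mice carried Vdac2 flox/flox alleles and a Cre transgene under the alpha-myosin heavy chain promoter, which acts in cardiomyocytes and leaves Vdac2 intact in the other cells of the tissue. WT mice were littermates that carried either the floxed alleles or the Cre transgene alone, so the WT group mixed those genotypes, and both sexes were used. The question was whether ventricles with little Vdac2 transcript differed in the transcripts of the machinery that shapes and clears mitochondria.

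Mitochondria constantly divide and fuse. In fission, the cytosolic GTPase DRP1, the product of Dnm1l, is drawn to the outer membrane by receptors such as Mff and Fis1 and constricts the organelle. In fusion, the mitofusins Mfn1 and Mfn2 join outer membranes and Opa1 joins inner membranes and holds cristae in shape. In mitophagy, the kinase Pink1 builds up on damaged mitochondria and recruits the ubiquitin ligase Parkin, whereas Bnip3, Bnip3l (also called NIX) and Fundc1 are outer membrane receptors that bind the autophagosome directly and are tied to hypoxia. The heart depends on this balance because its cardiomyocytes are packed with long-lived, densely arranged mitochondria. Vdac2, the gene deleted in the model, encodes an outer membrane channel.

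The Vdac2 level did not follow the labels, so libraries were arranged by it. In CPM (a gene's reads scaled to the size of its library), Vdac2 read 20.2, 21.3, 20.5 and 19.1 in libraries 1, 5, 7 and 9, and 366, 365, 384 and 421 in libraries 2, 4, 6 and 8. The first 4 are called Vdac2-low (under 100 CPM) and the second 4 Vdac2-high (over 300 CPM). Libraries 1 and 5 of the Vdac2-low set were labelled WT and libraries 7 and 9 labelled KO, whereas libraries 2 and 4 of the Vdac2-high set were labelled WT and libraries 6 and 8 labelled KO. Each set thus held 2 libraries from each label, and since all libraries labelled WT were sequenced in lane 1 of the flow cell, by the labels, and all labelled KO in lane 2, each set also held 2 from each lane. Library 3, labelled WT, read 58.5 CPM and is shown apart. Since a measured level chose the sets, their comparison is a description, given without a test. By the study's account, RNA quality led to the exclusion of 1 WT sample, which it does not name. The Vdac2-low libraries are not called KO here, nor the Vdac2-high libraries WT.

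Libraries held 27345052 to 44673988 reads assigned to genes (median 32469135), and a member's count in a library ranged from 745 reads for Fundc1 to 24652 reads for Pink1. Cardiomyocyte transcripts (Myh6, Tnnt2, Tnni3, Actc1, Myl2 and Ryr2) summed to 42440-49124 CPM in the Vdac2-low libraries and 50699-60276 CPM in the Vdac2-high libraries, whereas the atrial transcripts tested (Myl7 and Myl4, with Sln under the filter) summed to 1.83-3.23 CPM over both sets, beside the labelled ventricle. In library 3 the cardiomyocyte sum was 12547 CPM. Xist, the X-inactivation RNA, was at most 0.152 CPM in libraries labelled WT and at least 335 CPM in libraries labelled KO, so label, lane and Xist level cannot be told apart.

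Between the Vdac2 sets, the fusion genes Mfn1 and Opa1 were the members whose 4 Vdac2-low libraries all lay below all 4 Vdac2-high libraries. Opa1 differed by -0.27 and Mfn1 by -0.18 on the log2(CPM + 0.5) scale, Vdac2-low minus Vdac2-high. Pink1 had the most negative difference of the 10, -0.29, but 1 Vdac2-low library overlapped the other set. The fission genes Dnm1l, Mff and Fis1 lay between -0.022 and 0.065, and Bnip3, Bnip3l and Fundc1 between -0.012 and 0.042. In all, 2 of 10 members did not overlap between the sets, both lower and none higher, beside 12.1% of the 16322 tested genes that did not overlap, 4.93% lower and 7.16% higher. The median difference was -0.017 over the 10 members and 0.00080 over all tested genes whose 5th and 95th percentiles were -0.29 and 0.41.

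**Figure D1:**
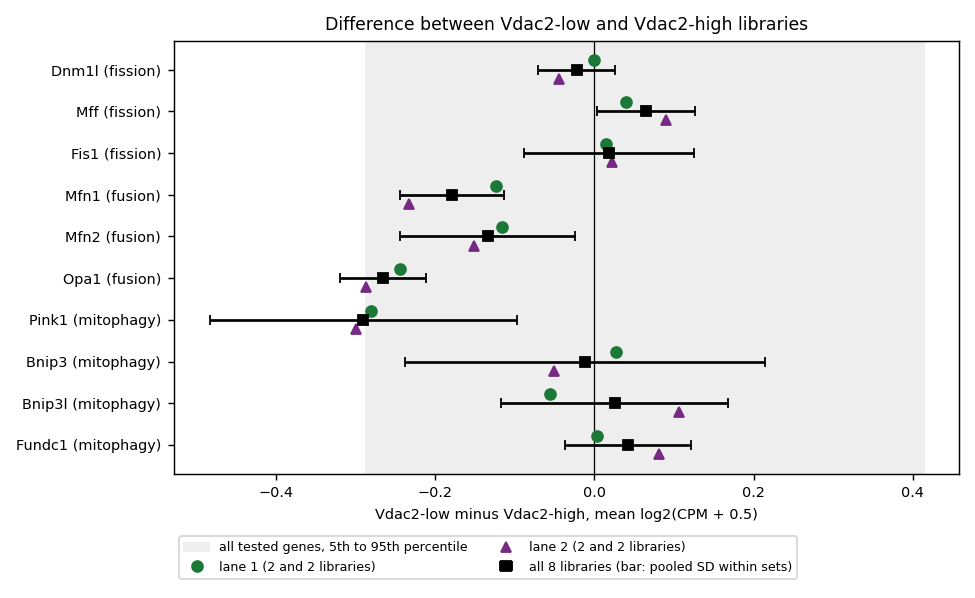
Difference in mean log2(CPM + 0.5), Vdac2-low minus Vdac2-high libraries (x axis), for each member (y axis). Squares are all 8 libraries with bars of the pooled SD within sets, circles are lane 1, triangles lane 2, and the grey band is the 5th to 95th percentile of all tested genes. Opa1, Mfn1, Mfn2, Pink1 and Dnm1l lie below zero in both lanes, Dnm1l at -0.00088 in lane 1 and -0.044 in lane 2. The fission genes, Dnm1l among them, and the mitophagy receptors lie near zero.

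The promoters of the 3 members with the most negative differences (Mfn1, Opa1 and Pink1) and of Bnip3, a textbook target of hypoxia-inducible factors, are printed so that their sequence can be set beside the values. Each runs from 250 bases before to 50 bases after a RefSeq transcript start (GRCm38.p6), 5′ to 3′ on the gene's strand, and capitals mark matches to the motifs named after them.
Mfn1, chr3:32529232-32529531, plus strand: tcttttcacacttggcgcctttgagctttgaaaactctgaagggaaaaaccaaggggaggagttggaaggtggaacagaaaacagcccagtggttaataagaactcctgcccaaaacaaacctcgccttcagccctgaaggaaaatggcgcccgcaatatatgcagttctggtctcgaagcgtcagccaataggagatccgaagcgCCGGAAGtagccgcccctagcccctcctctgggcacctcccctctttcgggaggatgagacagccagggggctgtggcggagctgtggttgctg
Opa1, chr16:29579084-29579383, plus strand: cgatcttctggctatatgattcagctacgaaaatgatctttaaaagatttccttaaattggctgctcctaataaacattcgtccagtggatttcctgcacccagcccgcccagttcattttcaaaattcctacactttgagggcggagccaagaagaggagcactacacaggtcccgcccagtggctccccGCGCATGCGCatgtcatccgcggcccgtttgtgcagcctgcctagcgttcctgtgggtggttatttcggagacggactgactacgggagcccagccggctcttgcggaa
Pink1, chr4:138326247-138326546, minus strand: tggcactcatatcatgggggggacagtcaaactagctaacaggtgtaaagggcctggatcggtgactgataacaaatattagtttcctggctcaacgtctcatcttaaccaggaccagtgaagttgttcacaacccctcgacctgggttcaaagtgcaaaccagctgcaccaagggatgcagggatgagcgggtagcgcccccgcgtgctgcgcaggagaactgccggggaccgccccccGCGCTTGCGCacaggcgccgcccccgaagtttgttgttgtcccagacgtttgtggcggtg
Bnip3, chr7:138909457-138909756, minus strand: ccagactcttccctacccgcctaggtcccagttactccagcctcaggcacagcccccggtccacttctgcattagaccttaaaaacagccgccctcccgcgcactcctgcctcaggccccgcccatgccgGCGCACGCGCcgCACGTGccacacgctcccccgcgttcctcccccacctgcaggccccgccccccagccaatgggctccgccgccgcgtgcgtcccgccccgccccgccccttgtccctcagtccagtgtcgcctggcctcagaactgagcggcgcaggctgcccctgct
Promoters were found for 9 of the 10 members, in 14 windows since some genes have several starts, and 5 motifs were searched on both strands. The motif of nuclear respiratory factor 1 (NRF1), a regulator of nuclear genes for mitochondrial proteins, is the capitals in the Opa1 and Pink1 promoters and the first capitals in the Bnip3 promoter, with any base allowed at its sixth position. The Pink1 match is on the strand opposite to the one printed, so there the free base is the fifth. The motif was found in these 3 members, in 3 of the 14 member windows, beside 4.6% of all 32851 windows. The letters CCGGAAG, bound by GABPA, matched in Mfn1, Dnm1l and Fis1, in 4 of the 14 member windows, beside 8.86% of all windows. The letters AAGGTCA, bound by oestrogen-related receptors, matched in none of the member windows and in 4.72% of all windows. The letters ACGTG, the core bound by hypoxia-inducible factors, matched in Bnip3 and Mfn2. These were 3 of the 14 member windows, beside 19.6% of all windows. CACGTG, an E-box that contains ACGTG on both strands, matched in Bnip3, in 1 of the 14, beside 7.15% of all windows. Windows of the same gene can overlap, so member windows are not separate cases. A match describes the letters and is not a measured binding site.

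The 3 fission genes overlapped between the sets. Dnm1l (ENSMUSG00000022789, chr16:16312230-16358959, minus strand, GRCm38) encodes the GTPase that constricts mitochondria. It read 163, 167, 169 and 173 CPM in the Vdac2-low libraries 1, 5, 7 and 9 and 165, 165, 180 and 172 CPM in the Vdac2-high libraries 2, 4, 6 and 8. The sets overlapped, at 168 ± 3.99 and 171 ± 7.03 CPM (SD, n = 4 each), and the log2 difference was -0.022, within either set's SD on that scale of 0.034 and 0.059. Dnm1l was also the steadiest member, with a coefficient of variation of 3.24% over the 8 libraries.

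Mff (ENSMUSG00000026150, chr1:82724890-82752394, plus strand), a receptor that recruits DRP1, ranged from 153 to 173 CPM in the Vdac2-low and from 148 to 159 CPM in the Vdac2-high libraries. Its means were 162 ± 8.24 and 155 ± 5.10 CPM (SD, n = 4 each), a log2 difference of 0.065 beside SDs of 0.073 and 0.048. Fis1 (ENSMUSG00000019054, chr5:136953275-136966234, plus strand), a small outer membrane adaptor, ranged from 57.8 to 70.6 CPM and from 59.0 to 66.9 CPM. Its log2 difference was 0.018, well inside SDs of 0.13 and 0.084, and both genes overlapped between the sets in each lane.

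**Figure D2:**
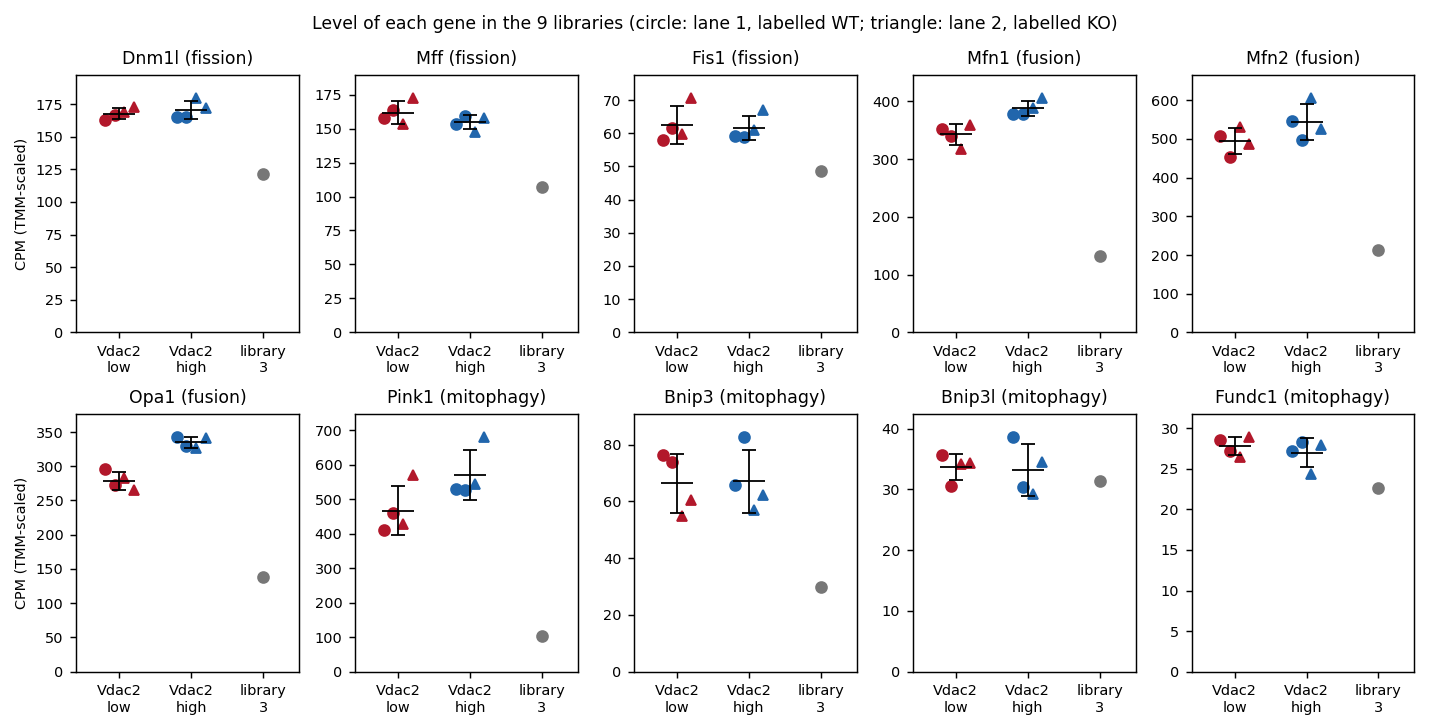
Level of each member (y axis, CPM, linear and starting at 0) in the Vdac2-low libraries (red), the Vdac2-high libraries (blue) and library 3 (grey). Each point is a library, circles are lane 1 (labelled WT), triangles lane 2 (labelled KO), and bars give the mean and SD of a set. Mfn1 and Opa1 are lower in all 4 Vdac2-low libraries than in any Vdac2-high library, and library 3 is the lowest library for 9 of the 10 members.

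The 3 fusion genes had lower means in the Vdac2-low libraries, and Opa1 and Mfn1 did not overlap. Opa1 (ENSMUSG00000038084, chr16:29579334-29654884, plus strand), the inner membrane fusion GTPase, read 295, 273, 283 and 265 CPM in libraries 1, 5, 7 and 9 and 342, 330, 327 and 341 CPM in libraries 2, 4, 6 and 8. Every Vdac2-low library was below every Vdac2-high library, with a gap from 295 to 327 CPM. The means were 279 ± 13.3 and 335 ± 7.94 CPM (SD, n = 4 each), a difference of -16.8% in the means and of -0.27 on the log2 scale beside SDs of 0.068 and 0.034. The difference was -0.24 in lane 1 and -0.29 in lane 2. The lack of overlap between the 2 and 2 libraries of either lane follows from the gap above.

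Mfn1 (ENSMUSG00000027668, chr3:32529465-32579239, plus strand), a mitofusin of the outer membrane, read 352, 341, 317 and 360 CPM in the Vdac2-low libraries 1, 5, 7 and 9 and 378, 377, 389 and 406 CPM in the Vdac2-high libraries 2, 4, 6 and 8. The sets did not overlap, although the gap was narrow, from 360 to 377 CPM. The means were 343 ± 18.5 and 388 ± 13.2 CPM (SD, n = 4 each), a difference of -11.6%. The log2 difference was -0.18, with SDs of 0.079 and 0.049, and it was -0.12 in lane 1 and -0.23 in lane 2. The lack of overlap in either lane follows from that of the 4 and 4 libraries. Over all tested genes, 19.9% did not overlap in either lane with the same direction in both, and 8.58% did so with lower values in the Vdac2-low libraries. For Mfn1 and Opa1, already without overlap 4 against 4, the lanes add nothing on overlap.

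Mfn2 (ENSMUSG00000029020, chr4:147873599-147904704, minus strand), the other mitofusin, which also tethers mitochondria to the endoplasmic and sarcoplasmic reticulum, read 509, 453, 530 and 486 CPM in the Vdac2-low libraries and 546, 497, 606 and 525 CPM in the Vdac2-high libraries, each in order of library number. The sets overlapped, since libraries 1 and 7 lay above library 4 and library 7 also above library 8. Its means were 495 ± 33.1 and 543 ± 46.4 CPM (SD, n = 4 each), and the log2 difference of -0.13 was close to the SDs of 0.097 and 0.12. It was -0.080 without library 6 and -0.077 with scaling by total counts.

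The fusion genes were also read against Dnm1l in the same library, which removes the scaling of the library. The share of all tested genes whose ratio to Dnm1l did not overlap was not computed, so these ratios are a description only. The Opa1 to Dnm1l ratio was 1.81, 1.63, 1.68 and 1.53 in the Vdac2-low libraries 1, 5, 7 and 9 and 2.07, 2.00, 1.82 and 1.98 in the Vdac2-high libraries 2, 4, 6 and 8. The ratios did not overlap, with means of 1.66 ± 0.116 and 1.97 ± 0.109 (SD, n = 4 each), but libraries 1 and 6 nearly met. The Mfn1 to Dnm1l ratio averaged 2.04 ± 0.119 and 2.27 ± 0.0792 and also did not overlap, by a similarly small margin, whereas the Mfn2 to Dnm1l ratios overlapped at 2.95 ± 0.216 and 3.18 ± 0.183. In library 3 the Opa1 and Mfn1 ratios were 1.14 and 1.09.

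Of the mitophagy genes, Pink1 (ENSMUSG00000028756, chr4:138313409-138326307, minus strand) varied most between libraries, with a coefficient of variation of 16.7% over the 8 libraries. It read 411, 459, 428 and 569 CPM in the Vdac2-low libraries 1, 5, 7 and 9 and 530, 526, 544 and 679 CPM in the Vdac2-high libraries 2, 4, 6 and 8. Library 9 was the 1 Vdac2-low library that reached the Vdac2-high range. The means were 467 ± 71.1 and 570 ± 73.3 CPM (SD, n = 4 each), a difference of -18.1%, and the log2 difference of -0.29 was larger than the SDs of 0.21 and 0.18. It was -0.28 in lane 1, with no overlap, and -0.30 in lane 2, with overlap.

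The 3 receptors that bind the autophagosome overlapped between the sets. Bnip3 (ENSMUSG00000078566, chr7:138890836-138909519, minus strand) read 76.4, 74.0, 54.9 and 60.5 CPM in the Vdac2-low libraries 1, 5, 7 and 9 and 65.9, 82.6, 57.1 and 62.4 CPM in the Vdac2-high libraries 2, 4, 6 and 8. Its sets overlapped widely, with means of 66.5 and 67.0 CPM and SDs of 0.23 on the log2 scale in both (n = 4 each), and the higher values were in the libraries labelled WT. Bnip3l (ENSMUSG00000022051, chr14:66985239-67008877, minus strand) ranged from 30.5 to 35.6 CPM and from 29.3 to 38.6 CPM, and Fundc1 (ENSMUSG00000025040, chrX:17556564-17572325, minus strand) from 26.5 to 28.9 CPM and from 24.4 to 28.3 CPM. The log2 differences were -0.012, 0.025 and 0.042 for Bnip3, Bnip3l and Fundc1, all smaller than the SDs within the sets. Of the 50-base stretches of the Bnip3 and Bnip3l transcripts, 47.2% and 20.8% also occur in transcripts of other genes, so the levels of these genes are uncertain, as how multiply mapped reads were counted is not given in the sources used here. That share was 4.9% for Dnm1l, 3.03% for Pink1, 1.45% for Mff and 0.885% for Mfn1, and 0 for the other members.

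Members were compared per kilobase of exon, with the length taken over all annotated exons of a gene. Values are mean ± SD over the 8 libraries other than library 3. On this scale Pink1 was the highest member, at 194 ± 32.4 CPM per kb. Mfn2 followed at 99.9 ± 8.76, Mfn1 at 59.7 ± 4.62 and Opa1 at 39.0 ± 4.03 CPM per kb. Fis1 stood at 36.2 ± 2.61, Dnm1l at 32.5 ± 1.05 and Bnip3 at 29.5 ± 4.38 CPM per kb. In this order Opa1 overlapped with Fis1, Fis1 with Dnm1l and Dnm1l with Bnip3, and the other neighbours did not overlap. Mff (16.2 ± 0.763), Fundc1 (11.6 ± 0.615) and Bnip3l (8.66 ± 0.809) were the lowest. By this length the outer membrane fusion genes stood above the fission genes. The length was 9757 bases for Mff and 1714 bases for Fis1, and it can exceed that of the transcripts expressed. The order by the length of expressed transcripts was not computed. The places of Bnip3 and Bnip3l rest on the uncertain counts above.

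**Figure D3:**
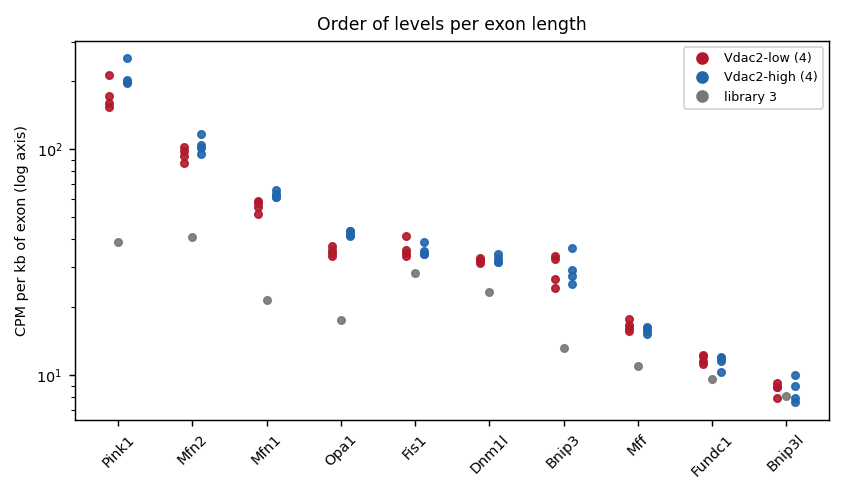
Level of each member in CPM per kilobase of exon (y axis, log scale) in each Vdac2-low library (red), Vdac2-high library (blue) and library 3 (grey), with members in the order of their mean over the 8 libraries. Apart from library 3, Pink1 and Mfn2 stand clear of the rest, and the values of Opa1, Fis1, Dnm1l and Bnip3 overlap from neighbour to neighbour.

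Library 3 stood below all 8 other libraries for 9 of the 10 members. Relative to the median of the other 8, the log2 difference was -2.34 for Pink1 (104 against 528 CPM), -1.48 for Mfn1 (132 against 369), -1.28 for Mfn2 (212 against 517), -1.16 for Opa1 (139 against 311) and -1.09 for Bnip3 (29.9 against 64.2). The fission genes were less reduced, at -0.47 for Dnm1l, -0.56 for Mff and -0.31 for Fis1, and Fundc1 stood at -0.28. Bnip3l, at 31.3 CPM, lay within the range of the others. In library 3 the cardiomyocyte sum was also the lowest of the 9 libraries, while the 5 macrophage markers, summing to 592 CPM, were each at their highest. Its fibroblast sum of 2849 CPM was also the highest. Col1a1 (691 CPM), Col1a2 (1412 CPM) and Pdgfra (149 CPM) were each the highest of the 9 libraries, whereas Dcn, at 454 CPM, was the lowest and Lum, at 144 CPM, lay within the range of the others.

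Of the other cell types, only the macrophage markers had sums that did not overlap between the Vdac2 sets, and over all tested genes 12.1% did not overlap. Fibroblast markers (Col1a1, Col1a2, Dcn, Lum and Pdgfra) summed to 1141-1324 CPM in the Vdac2-low and 880-1143 CPM in the Vdac2-high libraries, with 1 of 5, Col1a2, higher without overlap. Macrophage markers (Adgre1, Csf1r, Cd68, C1qa and C1qb) summed to 223-308 and 152-213 CPM, and 2 of 5, Adgre1 and Cd68, were higher without overlap. Endothelial markers (Pecam1, Cdh5, Kdr and Tie1) summed to 396-520 and 510-606 CPM, with 1 of 4, Pecam1, lower without overlap. Smooth muscle markers (Acta2, Myh11 and Tagln) summed to 250-542 and 227-303 CPM and red blood cell markers (Hba-a1, Hbb-bs and Alas2) to 595-1165 and 508-1731 CPM, each overlapping. All 6 cardiomyocyte markers were lower on average in the Vdac2-low libraries, by log2 differences of -0.093 for Tnnt2 to -0.33 for Myh6, a range that holds those of Mfn1, Mfn2, Opa1 and Pink1, and all 6 overlapped, although their sum, given above, did not. Of the 2 atrial markers tested, Myl4 was higher in the Vdac2-low libraries without overlap. The part of these shifts in the member values was not tested. In such bulk tissue, fewer cells of a type and less RNA per cell cannot be told apart.

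Other genes of the same processes were taken from lists of 68, of which 65 passed the filter on low counts. Between the Vdac2 sets, 3 were lower and 2 higher without overlap and 60 overlapped, with a median difference of -0.031, beside the 12.1% of all tested genes that did not overlap. Of 11 regulators of fusion and inner membrane proteases, 1 was lower without overlap, Parl, the rhomboid protease that cleaves Pink1. Parl read 28.9, 28.0, 26.3 and 30.2 CPM in the Vdac2-low libraries and 30.8, 30.6, 30.7 and 31.5 CPM in the Vdac2-high libraries, a log2 difference of -0.12. None of 8 further fission genes, 7 genes of the MICOS complex that shapes cristae junctions, and 4 genes of mitochondrial transport separated the sets, with medians of -0.038, -0.060 and -0.15.

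Among 15 mitophagy receptors and adaptors, 2 were lower without overlap and 1 higher, beside 4.93% and 7.16% of all tested genes. Sqstm1, the p62 adaptor that links ubiquitinated cargo to the autophagosome, was higher, at 481, 409, 428 and 529 CPM in the Vdac2-low libraries 1, 5, 7 and 9 and 347, 362, 344 and 401 CPM in the Vdac2-high libraries 2, 4, 6 and 8. Its means were 462 ± 54.4 and 364 ± 26.1 CPM (SD, n = 4 each), a log2 difference of 0.34. Nipsnap2, which has been tied to mitophagy as a signal on mitochondria, was lower, at 613 ± 53.5 and 752 ± 74.2 CPM, a log2 difference of -0.29, and Bcl2l13, another receptor, differed by -0.14. Of 20 genes of the autophagosome machinery, Lamp2, a lysosomal membrane protein, was the 1 gene that did not overlap, beside 12.1% of all tested genes, and it was higher, at 279 ± 15.4 and 235 ± 10.1 CPM, a log2 difference of 0.25.

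A separate list held targets of hypoxia-inducible factors, to which Bnip3 belongs. Of 12, 3 were lower and 2 higher without overlap, beside 4.93% and 7.16% of all tested genes. Hk2, a hexokinase that docks on outer membrane channels, was the lowest, with 263, 297, 292 and 213 CPM in the Vdac2-low libraries 1, 5, 7 and 9 and 368, 349, 398 and 358 CPM in the Vdac2-high libraries 2, 4, 6 and 8, a log2 difference of -0.48. Vegfa, the vascular growth factor, differed by -0.32 and Ndrg1 by -0.15, whereas Pgk1, a glycolytic kinase, differed by 0.32 and Adm, which encodes adrenomedullin, by 0.30. The list had a median of -0.067 with genes on both sides, while Bnip3 overlapped between the sets.

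**Figure D4:**
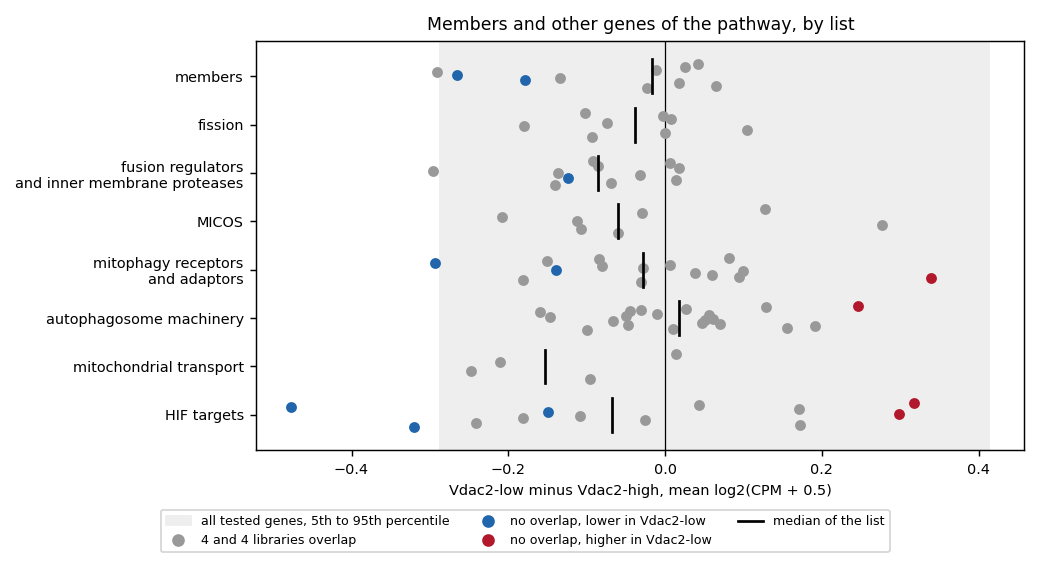
Difference in log2(CPM + 0.5) between the Vdac2-low and Vdac2-high libraries for each member and each gene of the other lists (x axis), in a line for each list with its median as a bar. Grey points overlap between the sets, blue are lower and red higher without overlap, and the band is the 5th to 95th percentile of all tested genes. Most genes of every list overlap between the sets, and the points without overlap include Mfn1 and Opa1 on the lower side and Sqstm1 and Lamp2 on the higher side.

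By the labels, no member passed the test. With edgeR's quasi-likelihood test and Benjamini-Hochberg adjustment over the 16322 genes, 0 of 10 members had an adjusted p under 0.05, beside 0.0551% of tested genes, and 0 of 10 had an unadjusted p under 0.05, beside 6.11% of tested genes. DESeq2 and limma voom with library quality weights each called 0 members. By unadjusted p under 0.05, DESeq2 gave 0 members beside 8.43% of genes with a p, and limma voom 1 (Bnip3) beside 13.7%. Log2 fold changes, labelled KO minus labelled WT, were positive for 8 of 10 members, with a median of 0.14 beside -0.018 for all tested genes. Without library 3 they were positive for 5 of 10 members and 50.6% of all genes. Pink1 had the most positive, 0.45 ± 0.40 (SE; edgeR adjusted p = 0.71), at 406 ± 176 CPM in the libraries labelled WT (SD, n = 5) and 555 ± 103 CPM in those labelled KO (SD, n = 4). The low value of library 3 stood in the first group, and without it the fold change was 0.20 ± 0.13 (edgeR adjusted p = 0.59).

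Of the 65 other genes of these processes and the 12 targets of hypoxia-inducible factors, 0 had an unadjusted or adjusted p under 0.05 by edgeR, beside the 6.11% and 0.0551% of all tested genes. In direction, 53 of the 65, 6 of the 12 and 47.3% of all tested genes had a higher value in the libraries labelled KO. Without library 3 these were 42 of the 65, 5 of the 12 and 50.6% of all genes. There, 1 of the 65 and 3 of the 12 had an unadjusted p under 0.05, beside 11.8% of all genes, and 0 an adjusted p under 0.05. Since library 3 carries the label WT and was the lowest for most members, the labelled values of the members were also computed without it. Dnm1l then changed from 0.15 ± 0.11 to 0.065 ± 0.058, Mfn2 from 0.28 ± 0.25 to 0.093 ± 0.091, Mfn1 from 0.22 ± 0.28 to 0.016 ± 0.087 and Opa1 from 0.14 ± 0.24 to -0.036 ± 0.10 (log2 fold change ± SE). None of the 10 passed an adjusted p of 0.05 there either, beside 0.382% of genes, and 1, Bnip3, had an unadjusted p under 0.05.

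With library 3 left out, 2 of 10 members did not overlap between the labels, Dnm1l and Bnip3, beside 7.44% of all tested genes. Dnm1l read 163 to 167 CPM in the 4 libraries labelled WT and 169 to 180 CPM in the 4 labelled KO, a narrow gap, with an edgeR adjusted p of 0.70. Bnip3 read 65.9 to 82.6 CPM in the libraries labelled WT and 54.9 to 62.4 CPM in those labelled KO. The change of Bnip3 on the log2 scale was -0.35 ± 0.076 (SE), with an unadjusted p of 0.00066 and an adjusted p of 0.093 by edgeR's quasi-likelihood test, beside -0.16 ± 0.25 and an adjusted p of 0.82 with all 9 libraries. Over the alternatives tried, the adjusted p of Bnip3 ranged from 0.093 to 0.92. With each library left out, the log2 fold change of Bnip3 ranged from -0.35 without library 3 to -0.068 without library 4. The 4 libraries labelled KO held Vdac2-low and Vdac2-high libraries alike, and lane and Xist level changed with the label, so their part cannot be told apart from it. Fundc1, the X-linked member, overlapped between the labels, with a log2 fold change of 0.0075 ± 0.094 (SE; edgeR adjusted p = 0.98).

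**Figure D5:**
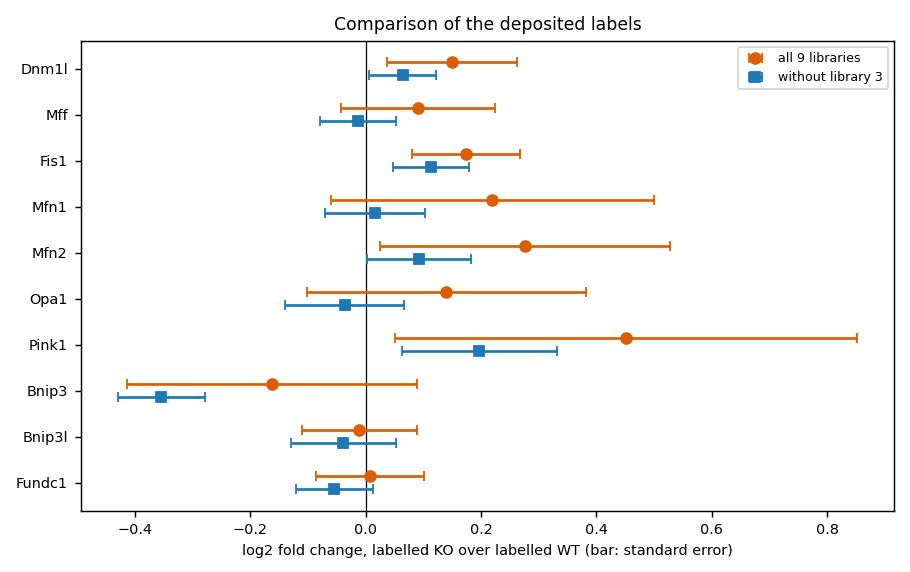
Log2 fold change of each member between libraries labelled KO and labelled WT (x axis), with all 9 libraries and without library 3, with bars of 1 SE. With all libraries 8 of 10 values are positive and without library 3 they are 5 of 10, and in the latter the bars are shorter, the first 7 members lie nearer zero and Bnip3, Bnip3l and Fundc1 lie farther from it on the negative side, Bnip3 at -0.35.

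The genes whose levels ran most like Pink1 over the 9 libraries were Uqcrfs1, the Rieske protein of complex III (Pearson r = 0.998), Ndufs1, a core subunit of complex I (0.998), and Dcaf8 (0.997). Over the 8 libraries without library 3, r was 0.989, 0.969 and 0.966. For Opa1, they were Pcca, a subunit of propionyl-CoA carboxylase (0.997), Kcnv2, a potassium channel subunit (0.996), and Vldlr, a lipoprotein receptor (0.995), and over 8 libraries r was 0.976, 0.972 and 0.976. All points share the same libraries, and the values describe likeness in level with library 3 far below the rest. The Vdac2-low minus Vdac2-high differences of these genes were -0.19, -0.23 and -0.091 for those like Pink1, and -0.33, -0.95 and -0.39 for those like Opa1.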

How the data were processed

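The authors deposited whole-number read counts per gene for 9 ventricular libraries, made from ribosomal RNA-depleted, stranded, 50-base single-end reads. By the submitters' processing notes, reads were aligned to GRCm38 with STAR 2.7.2c and counted with featureCounts 1.6.3, and DESeq2 was used. The annotation release, the strand setting and the treatment of multiply mapped reads are not given in the sources used here. Of 52636 gene IDs, 52403 were paired with a symbol from GENCODE, and coordinates are GRCm38. Columns left unused numbered 0.

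From the counts, TMM-scaled CPM and log2(CPM + 0.5) were computed. Labelled KO and labelled WT libraries were compared with edgeR 4.0.16's quasi-likelihood test in R 4.3.3, after filterByExpr, with Benjamini-Hochberg adjustment over 16322 genes. DESeq2 1.42.0 and limma 3.58.1 (voom with library quality weights) were alternatives, beside other scalings, no filter and leaving out each library. The fit was tested on simulated counts. Nothing in the labels says which libraries came from separate mice, so p-values measure the spread between these samples. For the Vdac2 sets, means, SDs and overlap of the 4 and 4 libraries were computed with no test. Every pair of libraries differed by more than counting noise (chi-square over its degrees of freedom of at least 6.72). Total counts were 27345052-44673988, so that a floor of 3 counts was 0.0693-0.114 CPM.

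The members, sets and lists were chosen with earlier results of these data known. Named genes are the 10 members, Vdac2 and, per list, the gene with the most positive and the most negative difference among those whose libraries did not overlap. Bcl2l13, Vegfa, Ndrg1 and Adm were named after their values were seen. Likeness to a member was measured as Pearson's r of log2(CPM + 0.5) over all libraries. Gdap1, Mtfr2 and Calcoco2 fell under the filter. Promoters came from RefSeq (GRCm38.p6).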

Additional observations from a re-analysis of the deposited data

Results flagged for a closer look

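Library 3 lay far below the other 4 libraries labelled WT for 7 members, at 121 CPM for Dnm1l, 107 CPM for Mff, 48.7 CPM for Fis1, 132 CPM for Mfn1, 212 CPM for Mfn2, 104 CPM for Pink1 and 22.6 CPM for Fundc1. In each case, its gap to the nearest library was large beside the range of the group by Dixon's criterion. Among the libraries labelled KO, library 6 lay below the other 3 for Bnip3l, at 29.3 CPM. In all, 8 of 20 groups of libraries stood out in this way, where chance gives about 1 in 20, and 7 of the 8 rest on library 3. The cause was not tested.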

How the results depend on the processing

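Between the Vdac2 sets, Mfn1, Mfn2, Opa1 and Pink1 were lower on average in the Vdac2-low libraries under every alternative, and the other 6 members, whose differences were near zero, changed sign under at least 1. With total counts, Dnm1l stood at 0.034 and Bnip3 at 0.045. Mfn1 and Opa1 remained without overlap under every scaling. Leaving out a library cannot create an overlap between sets that lie apart. Library 3 was below all others for both genes, so adding it to the Vdac2-low set cannot either. Neither alternative adds anything on the overlap of these genes. Of all tested genes, 12.2% did not overlap with DESeq2's size factors, 13.9% with total counts and 10.4% with library 3 added. This share was not computed with a library left out. Leaving out library 9, the 1 Vdac2-low library that overlapped for Pink1, removes the overlap of Pink1 by construction and adds nothing on that gene. Adding library 3 moved the differences to -0.72 for Pink1, -0.47 for Opa1, -0.45 for Mfn1, -0.38 for Mfn2, -0.24 for Bnip3, -0.12 for Dnm1l, -0.053 for Mff, -0.052 for Fis1, -0.015 for Fundc1 and 0.0054 for Bnip3l. The median of all genes lay at 0.00080 with TMM, -0.0076 with DESeq2's size factors and 0.051 with total counts.

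Between the labels, 9 genes had an adjusted p under 0.05 by edgeR, 70 by DESeq2, 77 by limma voom with quality weights and 5 to 62 with each library left out, 62 without library 3. The cause was not tested. No member was called under any alternative. Values near zero changed sign, with log2 fold changes of -0.028 for Mff and -0.063 for Fundc1 by voom and 0.016 for Bnip3l with no filter. With each library left out, Mff ranged from -0.013 to 0.12, Opa1 from -0.036 to 0.23, Bnip3l from -0.045 to 0.047 and Fundc1 from -0.054 to 0.053. Among the fits that left out a library, Mff and Opa1 were below zero only in the one without library 3. No paired analysis was possible because the groups share no replicate numbers. At the depth of these libraries no member neared the floor of 3 counts, the lowest count being 745 reads.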
